A study of Mus musculus with 6 samples.

Results

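Fgf21 is a secreted member of the fibroblast growth factor (FGF) family, and its transcript was followed here together with those of the receptor components through which it signals. The genes were chosen by name: Fgf21, Klb and Fgfr1 to Fgfr4. Of these 6 genes, 5 were among the 10245 genes of the deposited expression table, and Fgfr4 was not analysed here. Fgf21 itself was singled out because it differed between the groups in these same libraries, so its values and those of its receptors are given as a description, without a test.

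RNA from the whole pancreas of 6 mice had been sequenced, with 3 control mice of genotype Ptf1a(CreER/+) and 3 Ptf1a cKO mice of genotype Ptf1a(CreER/fl). Both groups carried a Ptf1a allele that encodes tamoxifen (TM)-inducible Cre, so Cre was driven from the Ptf1a locus, which is active in adult acinar cells, and the comparison separated mice whose other Ptf1a allele was intact or floxed. The paper states that the Cre allele makes no PTF1A protein. Control mice were thus heterozygous for Ptf1a and not wild type. All 6 mice received TM by gavage at 0.25 mg/g on days 0, 1 and 2, and their pancreata were taken on day 14. Control mice were 4 months old and Ptf1a cKO mice 5 months old, so age and genotype cannot be told apart. Control 1 and Ptf1a cKO 2 were male and the other 4 mice female, each with its own mouse number, and the tests below measure the spread between these mice.

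FGF21 acts as an endocrine hormone. It binds poorly to FGF receptors alone and needs the co-receptor β-Klotho, encoded by Klb, to signal, mainly through FGFR1. The liver releases it during fasting under the control of PPARα, while many tissues make it when stress kinases act through the transcription factor ATF4, and the exocrine pancreas is among its richest sources in mice, where it stimulates the secretion of digestive enzymes. PTF1A, the gene product removed in the Ptf1a cKO mice, is the transcription factor that keeps acinar cells producing those enzymes.

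The promoter of Fgf21 is shown because its known regulators leave short recognition motifs, and the levels of several of these regulators are given further on. In RefSeq on GRCm38.p6, the 250 bases before the annotated start of Fgf21 lie at chr7:45615491-45615740 on the minus strand and read as follows, 5′ to 3′ in the direction of transcription, with motifs in capitals.
Fgf21 promoter: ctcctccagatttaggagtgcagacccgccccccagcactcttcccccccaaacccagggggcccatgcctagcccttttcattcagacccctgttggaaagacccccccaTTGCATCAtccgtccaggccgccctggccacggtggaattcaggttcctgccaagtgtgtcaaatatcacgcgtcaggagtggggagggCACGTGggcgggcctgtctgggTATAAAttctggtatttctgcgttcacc
The first run of capitals, TTGCATCA, stands 139 to 132 bases before the start. It is TGATGNAA, the core of the element bound by ATF4 with C/EBP proteins, read from the opposite strand. The second, CACGTG, stands 50 to 45 bases before the start and is an E-box of the kind bound by ChREBP-MLX and other bHLH factors. The third, TATAAA, 28 to 23 bases before the start, is a TATA box. Both strands were searched in the 250 bases before each of 32851 RefSeq start sites of mouse genes. TGATGNAA was found in 3.45% of them, CACGTG in 6.02% and TATAAA in 12.4%. CANNTG, the general E-box, which includes CACGTG and forms one part of the composite PTF1 site, also matched as CAAGTG, 88 to 83 bases before the start of Fgf21, but was present in 66.2% of all promoters. TGGGAA, a core of the RBPJ site that forms the other part of the PTF1 element, and AGGTCA, the core recognized by PPARα and other nuclear receptors, gave 0 matches in this window, against 21.6% and 14.0% of all promoters. A match of letters is a description and not evidence of binding.

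The deposited values are normalized read counts on a scale the authors set across the libraries. Every gene among them reached at least 27.6 normalized counts in some library. A gene below that in all controls was therefore present only through the Ptf1a cKO libraries. Likewise, a gene below it in all Ptf1a cKO libraries was present only through the controls. The median gene was at nearly the same value in all 6 libraries, 128.5 normalized counts at most, while the sum over all genes ran from 17949889 to 21175836 in control and from 5527104 to 8981107 in Ptf1a cKO libraries. These sums follow from the scaling, and the sequencing depth cannot be read from them. On this scale the median gene differed by 0.04 (log2, Ptf1a cKO minus control). Scaling each library to the same total would move that median to 1.49, and to 0.23 when digestive enzymes and other secreted acinar proteins were left out of the total, so a small difference can change its sign with the scaling, and it is said below where this happened. Across all genes 1751 were higher and 1724 lower in Ptf1a cKO mice by limma with Benjamini-Hochberg adjustment at 0.05, together 33.9% of the genes tested.

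Ptf1a was measured first as a check of the genotypes. It stood at 566.4, 600.7 and 651.6 normalized counts in the control libraries and at 19.8, 70.1 and 10.2 in the Ptf1a cKO libraries. All 3 Ptf1a cKO libraries were far below all controls, and Ptf1a cKO 2 retained the most. Relative to the control mean, the 3 Ptf1a cKO libraries held 3.27%, 11.6% and 1.69% of the transcript. Ptf1a fell by 4.41 ± 0.49 on the log2 scale (± SE, limma adjusted p = 3.29e-04, n = 3 mice per group).

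Fgf21 was abundant in control pancreas and scarce after Ptf1a deletion. The control libraries held 480.3, 429.6 and 393.5 normalized counts of Fgf21, and the Ptf1a cKO libraries 12.9, 88.9 and 14.6. Controls were tightly grouped and lay well above every Ptf1a cKO library. Within the Ptf1a cKO mice, number 2 was several times above the other two, which were close to each other. The means were 434.5 ± 43.6 in control and 38.8 ± 43.4 in Ptf1a cKO mice (SD, n = 3 each), which is 8.93% of the control level, or 11.2-fold less. The log2 difference, taken after adding a pseudocount of 3.41 normalized counts that reduces it somewhat at the low end, was -3.86 ± 0.55 (SE). Only 3 of the 10245 genes, Ear5, Ptf1a and Pkd1l2, had a lower log2 difference. Groups that did not overlap were common in this comparison, with all Ptf1a cKO libraries below all controls for 24.3% of genes and no overlap in either direction for 50.8%, and Fgf21 was chosen for its change, so the separation itself is not a result about Fgf21.

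A single mouse set much of the Ptf1a cKO mean. Without Ptf1a cKO 2 the mean of the others was 13.8 normalized counts, 31.5-fold below control, and the log2 difference was -4.67. Leaving out any other library kept the log2 difference between -3.93 and -3.42. Ptf1a cKO 2 was also the only male of its group and retained the most Ptf1a. It held 11.6% of the control mean of Ptf1a, against 3.27% in Ptf1a cKO 1 and 1.69% in Ptf1a cKO 3. Its sex, its remaining Ptf1a and its retained Fgf21 cannot be told apart. Among females Fgf21 averaged 411.6 normalized counts in the 2 controls and 13.8 in the 2 Ptf1a cKO mice, and in the 1 male of each group it was 480.3 and 88.9. The difference was thus 29.9-fold in females and 5.41-fold in males, with 1 male per group and no test. The male was the highest for Fgf21 in both groups.

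**Figure D1:**
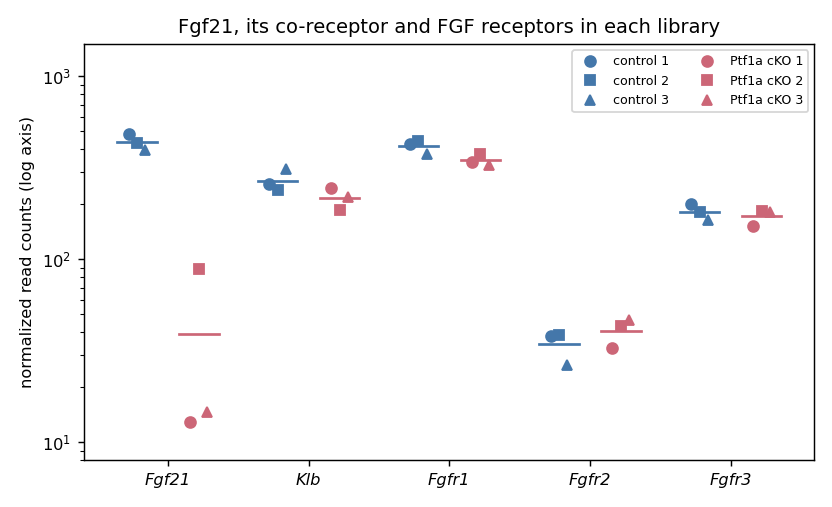
Normalized counts (log axis) of Fgf21, Klb, Fgfr1, Fgfr2 and Fgfr3 in each library, with a point for each mouse, controls and Ptf1a cKO mice in separate colors, and bars for group means. Fgf21 drops from 393.5 or more in controls to 88.9 or less in Ptf1a cKO libraries, whereas the points for the receptor genes lie close together.

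To place Fgf21 among other transcripts, its counts were divided by the 951 bases of its annotated exons and ranked among the 10164 genes with an exon length. Per kilobase, Fgf21 stood at the 97.7th, 97.4th and 97.2nd percentile in the control libraries. In Ptf1a cKO libraries 1 and 3 it stood at the 27.0th and 27.8th percentile, and in Ptf1a cKO 2 at the 84.8th. A hormone transcript that ranked near the top of the control pancreas was thus in the lower part of the list in 2 of the 3 deleted pancreata.

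The receptor components showed no such gap. Klb, the co-receptor that gives FGF21 its specificity, measured 257.1, 240.0 and 310.1 normalized counts in control and 245.4, 186.5 and 220.0 in Ptf1a cKO libraries. The groups overlapped, since Ptf1a cKO 1 exceeded control 2. The means were 269.1 ± 36.5 and 217.3 ± 29.5 (SD, n = 3 each), and the log2 difference was -0.30 ± 0.14 (SE).

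Fgfr1 encodes the receptor that FGF21 uses most in its best-studied target tissues. It measured 428.4, 441.0 and 377.0 normalized counts in control libraries and 339.1, 375.4 and 328.9 in Ptf1a cKO libraries. All Ptf1a cKO values were below all control values, although the nearest pair, control 3 and Ptf1a cKO 2, were almost equal. The group means were 415.5 ± 33.9 and 347.8 ± 24.4 (SD), a log2 difference of -0.25 ± 0.11 (SE), and Ptf1a cKO mice held 83.7% of the control mean.

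Fgfr2 was the least abundant receptor. Its values were 38.1, 38.3 and 26.4 normalized counts in control and 32.7, 43.3 and 46.3 in Ptf1a cKO libraries, with overlap and a log2 difference of 0.23 ± 0.23 (SE). Fgfr3 stood at 200.1, 180.5 and 164.2 in control and at 151.7, 183.2 and 181.5 in Ptf1a cKO libraries. Those groups overlapped as well, and the log2 difference of -0.08 ± 0.13 (SE) took the opposite sign, 0.01, without Ptf1a cKO 1.

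The direction of these small differences rests on the scaling. With each library scaled to the same total, Klb, Fgfr1, Fgfr2 and Fgfr3 had log2 differences of 1.17, 1.23, 1.62 and 1.40, close to the 1.49 of the median gene. Relative to the median gene under that scaling they were -0.31, -0.25, 0.13 and -0.09. With acinar secretory genes left out of the total, Fgfr3 alone changed sign, to 0.12. Fgf21 kept its sign in both, at -2.48 with the same total, which is -3.97 relative to the median gene, and at -3.67 without the acinar genes.

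Because longer transcripts collect more reads, levels were compared between genes only per kilobase of exon. Fgf21 averaged 456.9 ± 45.8 normalized counts per kilobase in control mice (SD, n = 3), against 59.2 ± 8.03 for Klb, 42.1 ± 3.44 for Fgfr1, 25.4 ± 2.52 for Fgfr3 and 3.32 ± 0.66 for Fgfr2. By these lengths the order was Fgf21, Klb, Fgfr1, Fgfr3 and Fgfr2, with every neighboring pair of means apart by more than their SDs. The lengths join all annotated exons of a gene, 4549 bases for Klb and 9875 for Fgfr1, and the SDs do not cover that choice. Before division by length, Fgfr1 was above Klb in control mice, at 415.5 against 269.1 normalized counts. The order of Klb and Fgfr1 thus rests on the lengths. In Ptf1a cKO mice Fgf21 averaged 40.8 ± 45.6 normalized counts per kilobase, next to 47.8 ± 6.49 for Klb and 35.2 ± 2.48 for Fgfr1, and Fgf21 could no longer be placed above or below them within its spread. By these lengths Klb remained above Fgfr1 by more than the SDs of both. Before division by length it was below Fgfr1, at 217.3 against 347.8 normalized counts. Fgfr3 followed at 24.1 ± 2.47 and Fgfr2 at 3.95 ± 0.69. For Fgfr2 the exon length of 10328 bases includes a long read-through model, so its level per kilobase is a low estimate.

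Ratios within a library do not depend on its scaling. Per kilobase, Fgf21 exceeded Klb by 8.93, 8.56 and 6.07 times in the control libraries, and in the Ptf1a cKO libraries the ratio was 0.25, 2.28 and 0.32. By this measure ligand transcript outnumbered co-receptor transcript in every control and in Ptf1a cKO 2, and fell short of it in Ptf1a cKO 1 and 3. Klb over Fgfr1 per kilobase was 1.42 ± 0.32 in control and 1.37 ± 0.26 in Ptf1a cKO mice (SD, n = 3 each), a difference smaller than the spread of either group. In bulk RNA, fewer cells of a type and less transcript per cell cannot be told apart, and which pancreatic cells carried the receptor transcripts was not measured.

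Fgf21 was next set against acinar secretory genes, since acinar transcripts as a group were lower in the Ptf1a cKO mice. The list held 36 genes for digestive enzymes and other secreted acinar proteins, of which 33 were in the table. Their summed counts took 79.9% to 82.7% of the control libraries. In Ptf1a cKO libraries 1, 2 and 3 the share was 52.6%, 66.4% and 42.7%, and the summed level was between 14.4% (Ptf1a cKO 3) and 36.4% (Ptf1a cKO 2) of the control mean. By the same measure Fgf21 held 2.98%, 20.5% and 3.37% of its control mean in those libraries. Ptf1a cKO 2 was the library with the most remaining Ptf1a, Fgf21 and secretory transcripts alike. Bhlha15, which encodes the acinar secretory factor MIST1, remained at 17.4%, 41.4% and 14.3%.

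Per 1000000 counts of the acinar list, Fgf21 measured 27.4, 24.8 and 27.4 in control libraries and 3.43, 14.9 and 6.21 in Ptf1a cKO libraries. The groups did not overlap, and the control mean of 26.6 ± 1.52 was 3.25-fold above the Ptf1a cKO mean of 8.18 ± 5.98 (SD, n = 3 each). Without Ptf1a cKO 2 it was 5.51-fold above. With the 5 most abundant genes left out of the list, the ratio was 3.61-fold. Of the 33 measured acinar genes 22 (66.7%) fell, 1 (Pla2g1b, a phospholipase) rose and 10 did not pass the threshold, with a median log2 difference of -2.10. For comparison, 16.8% of all genes were called lower and 17.1% higher. With the same total, 20 of the 22 still had a negative sign. None of the 33 had a log2 difference as low as that of Fgf21, the lowest being -3.11 for Cela2a, a pancreatic elastase.

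**Figure D2:**
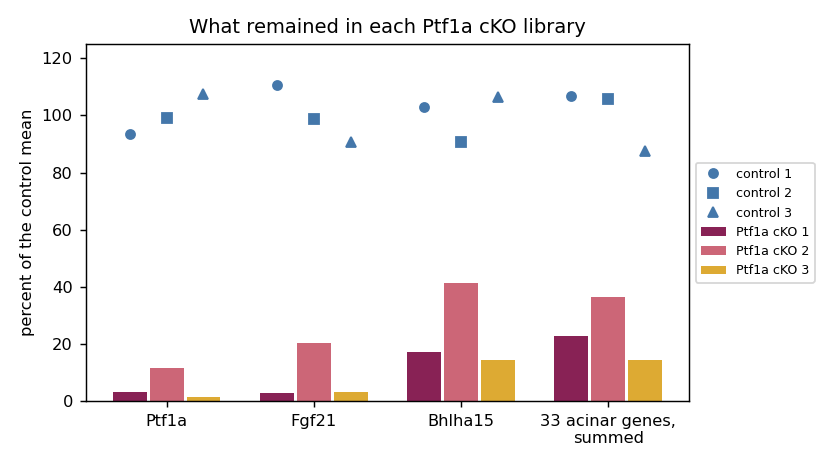
Level of Ptf1a, Fgf21, Bhlha15 and the summed 33 acinar secretory genes in each library, as percent of the control mean on a linear axis from 0, with symbols for control mice and bars for Ptf1a cKO mice. Ptf1a cKO 2 holds the tallest bar in each group of bars, and Fgf21 at 2.98% to 20.5% lies nearer to Ptf1a than to the secretory genes at 14.4% to 36.4%.

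The genes whose pattern over the 6 libraries came closest to that of Fgf21 were found by centering each gene's log2 values on its own mean and taking the root mean square (RMS) distance to Fgf21. The 10 nearest, from the first, were Tmed11, Gls2, Ptf1a, 1810041L15Rik, Cabp2, Kirrel2, Pkd1l2, Casp9, Slc39a5 and Serpini2, at RMS distances of up to 0.54. The gene at rank 100 was at 1.01 and the median gene at 2.12. Ptf1a itself was thus the third nearest of all measured genes, at 0.43. Tmed11, a member of the p24 family of secretory cargo receptors, measured 1239, 998 and 1003 normalized counts in control and 61.1, 197.0 and 42.9 in Ptf1a cKO libraries. Gls2, a glutaminase, measured 1401, 1407 and 979 in control and 78.2, 216.1 and 60.2 in Ptf1a cKO libraries. In both genes, as in Fgf21, Ptf1a cKO 2 was the highest of the 3 Ptf1a cKO libraries and remained well below every control. The group also held Casp9, an initiator caspase, with a log2 difference of -3.10, the zinc transporter Slc39a5 with -3.02, and Serpini2, a serpin made in the pancreas, with -3.03. Overlap with other genes was not examined for the 10 nearest genes, so reads of other genes within their counts cannot be told apart. None of the 10 belonged to the list of secretory genes, and all 10 had negative log2 differences with the same total as well. The distance includes the size of the fall for which Fgf21 was chosen, so its nearest genes had to be large falls too. Their signs and the rank of Ptf1a are therefore no result. Kirrel2 and Pkd1l2 were below 27.6 normalized counts in every Ptf1a cKO library and were present only through the controls. A shared pattern over 6 libraries of 2 groups is a description of likeness only.

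**Figure D3:**
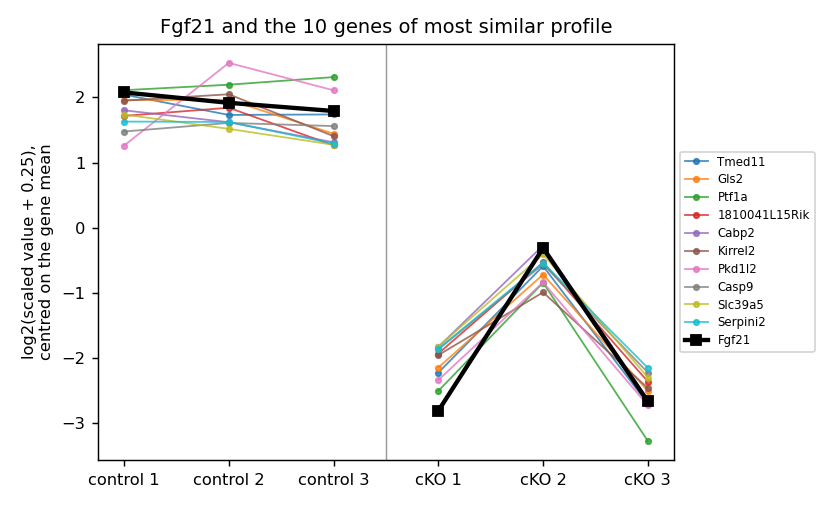
Log2 level of Fgf21 (black) and of the 10 genes nearest to it in pattern, each centered on its own mean, in the 3 control and 3 Ptf1a cKO libraries, with lines joining libraries of a group only to guide the eye. All of them drop between the groups, and among Ptf1a cKO libraries each is highest in number 2.

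The list of regulators of Fgf21 transcription, which included acinar identity factors, held more genes that fell than rose on the deposited scale. Of 33 listed regulators 27 were measured. Of these 12 fell and 1 rose, while 14 did not pass the threshold, and the median log2 difference was -0.31 against 0.04 over all genes. One of the 12 is Ptf1a, whose fall was set by the genotype. Without it 11 of 26 (42.3%) fell, where 16.8% of all genes were called lower and 17.1% higher. These 11 include Rbpjl, of the PTF1 complex, and Bhlha15 and Nr5a2, which the paper places under PTF1A and reports as downregulated. They also include Ppargc1a, which was present only through the control libraries. The list was also written with earlier results of these data known, so its share is a description only. With the same total only 4 of the 12 (Ptf1a, Rbpjl, Bhlha15 and Ppara) kept a negative sign, although all 12 stayed below the median gene.

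Among acinar regulators, Rbpjl, the partner that completes the adult PTF1 complex, fell by 2.29 ± 0.42 on the log2 scale (limma adjusted p = 0.00356), Bhlha15 by 2.19 ± 0.33 (0.00146 in the same fit) and Nr5a2, a nuclear receptor of acinar cells, by 1.05 ± 0.11 (3.08e-04). Among the stress regulators, Atf4 measured 2199, 2186 and 2475 normalized counts in control and 1142, 1457 and 812 in Ptf1a cKO libraries. Every Ptf1a cKO library was below every control, and Atf4 fell by 1.04 ± 0.20 on the log2 scale (limma adjusted p = 0.0040). Eif2ak3, which encodes the ER stress kinase PERK that raises ATF4 translation, fell by 1.10 ± 0.17 (limma adjusted p = 0.00155), and the ER stress sensor Atf6 fell by 1.32 ± 0.12 (limma adjusted p = 1.29e-04). Other ER stress genes did not pass the threshold. Xbp1 had a log2 difference of -0.04 ± 0.16, Ern1, which encodes IRE1α, -0.31 ± 0.16, and Ddit3, which encodes CHOP, -0.14 ± 0.14. The kinases Eif2ak1 and Eif2ak4, encoding HRI and GCN2, had values of 0.15 ± 0.16 and 0.29 ± 0.15.

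Among nuclear receptors and their partners, Ppara measured 132.0, 132.7 and 125.7 normalized counts in control and 36.7, 52.6 and 45.1 in Ptf1a cKO libraries. The groups were far apart compared with their spread, and Ppara fell by 1.48 ± 0.15 on the log2 scale (limma adjusted p = 2.46e-04). Its dimerization partner Rxra fell by 0.56 ± 0.11 (limma adjusted p = 0.00589), the glucocorticoid receptor Nr3c1 by 0.69 ± 0.10 (0.00139 in the same fit) and the coactivator Ppargc1a by 0.84 ± 0.25 (0.0281). The call for Ppargc1a was lost, with limma adjusted p of up to 0.141, when any 1 control or Ptf1a cKO 1 was left out. Ppargc1a was also below 27.6 normalized counts in every Ptf1a cKO library and so was present only through the controls. Mlx, the partner of ChREBP, fell by 0.77 ± 0.11 (limma adjusted p = 0.00136), while Mlxipl, which encodes ChREBP, did not pass at 0.37 ± 0.17. Hnf4a was the only regulator that rose, by 0.61 ± 0.14 (limma adjusted p = 0.0101). Sirt1, Tfeb, Stat5b, Rxrb, Fto, Rara and Nr1d1 did not pass and lay between -0.30 and 0.29.

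Fgf21 is itself a target of ATF4, and the other transcripts of that program moved with a clear majority in the same direction. All 39 listed targets other than Fgf21 were measured. Of these 30 (76.9%) fell, 1 rose and 8 did not pass, with a median log2 difference of -0.99. Among all genes tested 16.8% were called lower and 17.1% higher. With the same total 11 of the 30 kept a negative sign, the list median was 0.45, and all 30 were below the median gene. Stc2, a secreted glycoprotein hormone, fell by 2.75 ± 0.27 on the log2 scale (limma adjusted p = 1.99e-04). Chac1, a glutathione-degrading enzyme, measured 1087, 1139 and 480 normalized counts in control and 113.5, 280.9 and 91.4 in Ptf1a cKO libraries. It fell by 2.53 ± 0.43 (limma adjusted p = 0.00246), and again Ptf1a cKO 2 was the highest of its group. Psat1, in serine synthesis, fell by 2.22 ± 0.21 (limma adjusted p = 1.64e-04) and Eif4ebp1, an inhibitor of cap-dependent translation, fell by 2.05 ± 0.21 (2.17e-04 in the same fit). These 4 genes kept a negative sign with the same total.

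Not all of the program followed. Asns, the asparagine synthetase that is a standard readout of ATF4, measured 4700, 4824 and 3725 normalized counts in control and 3902, 4229 and 2584 in Ptf1a cKO libraries. The groups overlapped, and the log2 difference of -0.33 ± 0.20 did not pass (limma adjusted p = 0.241). Aars, an aminoacyl-tRNA synthetase, was at -0.28 ± 0.16 (limma adjusted p = 0.191). Atf3, a stress-induced repressor, was the 1 target that rose, by 1.06 ± 0.31 (limma adjusted p = 0.0259), but without control 1, Ptf1a cKO 1 or Ptf1a cKO 3 it no longer passed, with limma adjusted p of up to 0.0708. Its controls were all below 27.6 normalized counts, so it was present only through the Ptf1a cKO libraries.

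The motif seen in the Fgf21 promoter was looked for in this list. Of the 39 genes, 33 had a RefSeq promoter, and 10 of these (30.3%) held TGATGNAA on either strand within 250 bases before a start, against 1056 of 27025 genes (3.91%). The genes were listed because they are ATF4 targets, and no expression value enters this share. It is therefore no result about these libraries. The windows below, of 30 bases on GRCm38.p6 in the direction of transcription with the motif in capitals, set Fgf21 beside targets that fell strongly, 1 that did not pass and 1 that rose. Not all 10 are shown.
Fgf21, chr7:45615611-45615640, minus strand: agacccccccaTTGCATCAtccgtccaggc
Chac1, chr2:119351038-119351067, plus strand: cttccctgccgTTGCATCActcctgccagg
Nupr1, chr7:126625562-126625591, minus strand: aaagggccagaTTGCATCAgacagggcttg
Pycr1, chr11:120643833-120643862, minus strand: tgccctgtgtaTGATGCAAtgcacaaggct
Asns, chr6:7693214-7693243, minus strand: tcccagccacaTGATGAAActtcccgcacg
Atf3, chr1:191183425-191183454, minus strand: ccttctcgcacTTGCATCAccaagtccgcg
Fgf21, Chac1, Nupr1 and Atf3 carried the same 8 letters in the same orientation, and Pycr1 carried them on the other strand. Their log2 differences were -3.86, -2.53, -2.03, 1.06 and -1.58. Only that of Atf3 was positive, and Atf3 was present only through the Ptf1a cKO libraries. No difference in direction is therefore read from these genes. Asns was at -0.33. The motif was thus found in promoters of genes that fell, of genes that did not pass and of Atf3.

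PPARα targets, which like Fgf21 respond to that receptor in liver, went the other way. Of 26 listed targets other than Fgf21, 20 were measured. Of these 13 (65%) rose, 1 fell and 6 did not pass, where 17.1% of all genes were called higher and 16.8% lower. The median log2 difference was 0.77, and all 13 kept a positive sign with the same total. The 13 include Pdk4, which was present only through the Ptf1a cKO libraries. The uncoupling protein gene Ucp2 rose by 1.74 ± 0.29 on the log2 scale (limma adjusted p = 0.00221) and the carnitine carrier Slc25a20 by 1.51 ± 0.28 (0.00367). Pdk4, a kinase that restrains glucose oxidation, was at 3.54, 5.73 and 1.36 normalized counts in control and 21.0, 10.9 and 147.6 in Ptf1a cKO libraries. Every control was thus below 27.6 normalized counts. Pdk4 rose by 2.48 ± 0.82 (limma adjusted p = 0.0444) and was highest in Ptf1a cKO 3. The call was lost without any 1 library other than Ptf1a cKO 2, with limma adjusted p of up to 0.125. Ehhadh, a peroxisomal enzyme, fell by 0.69 ± 0.13 (limma adjusted p = 0.00456), a sign it did not keep with the same total. Etfdh, of mitochondrial electron transfer, did not pass at -0.01 ± 0.12.

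Markers of other cells that express PPARα targets were read beside this list. Of 12 hepatocyte markers 3 were in the table, and their summed level was 1150 to 1959 normalized counts in control and 13236 to 93010 in Ptf1a cKO libraries, with Alb and Ttr called higher. Nearly all of that sum was Ttr, which is also made in pancreatic islets, at 1109 to 1937 in control and 13129 to 92771 in Ptf1a cKO libraries. Alb, the defining hepatocyte transcript, was at 20.1 to 37.8 and 68.9 to 233.2, and Cyp2e1 overlapped between the groups. The other 9, among them Apoa1, Fgb and Ahsg, were not in the table. Of 14 adipocyte markers 11 were measured and 1, Cfd, was called higher (2 without control 3 or Ptf1a cKO 1, and 10 with the same total), and their sum was 628 to 1326 in control and 965 to 2874 in Ptf1a cKO libraries. Cfd was below 27.6 normalized counts in every control and so was present only through the Ptf1a cKO libraries. The part of these cells in the values of the list was not tested.

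**Figure D4:**
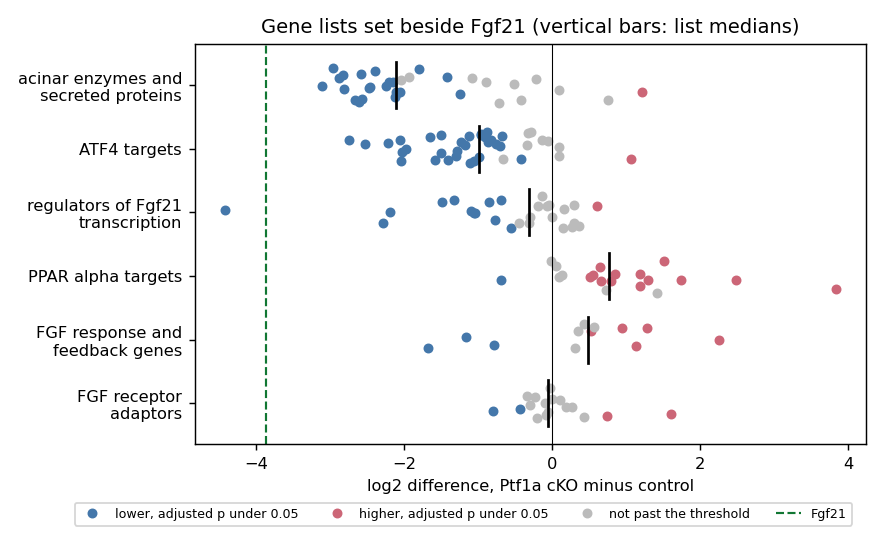
Log2 difference (Ptf1a cKO minus control) of each measured gene in 6 lists, with colors for genes called lower or higher by limma at adjusted p under 0.05, black bars for list medians and a dashed line for Fgf21 at -3.86. ATF4 targets lie mainly to the left (median -0.99) and PPARα targets mainly to the right (median 0.77). With the same total, 11 of the 30 fallen ATF4 targets keep a negative sign.

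Other components of FGF signaling were measured to see whether the pathway around the receptors changed. Of 21 other FGF ligands in the list only Fgf1 was in the table. It measured 60.2, 54.9 and 67.0 normalized counts in control and 64.7, 87.1 and 68.3 in Ptf1a cKO libraries, with overlap and a log2 difference of 0.25 ± 0.16 (limma adjusted p = 0.255). Fgfrl1, an FGF receptor without a kinase domain, measured 107.9, 122.2 and 142.3 in control and 197.0, 147.1 and 215.3 in Ptf1a cKO libraries. It rose by 0.56 ± 0.17 (limma adjusted p = 0.0288), a call that was lost without control 1, control 2, Ptf1a cKO 1 or Ptf1a cKO 3, with limma adjusted p of up to 0.104. Kl, the α-Klotho gene that serves FGF23, was not in the table.

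Among adaptors and docking proteins that carry the signal from FGF receptors, 17 of 18 listed genes were measured, of which 2 rose, 2 fell and 13 did not pass. The median was -0.05, and the share called, 23.5%, was below the 33.9% of all genes. Pik3r1, the regulatory subunit of PI3-kinase, measured 608, 642 and 656 normalized counts in control and 2299, 1427 and 2211 in Ptf1a cKO libraries. It rose by 1.60 ± 0.18 on the log2 scale (limma adjusted p = 3.47e-04). Nck2, an SH2-SH3 adaptor, rose by 0.74 ± 0.16 (limma adjusted p = 0.00872). Shb fell by 0.79 ± 0.19 (limma adjusted p = 0.0130) and Crkl by 0.43 ± 0.13 (0.0343), and both had positive signs with the same total. The call for Crkl was lost without any 1 library other than Ptf1a cKO 3, with limma adjusted p of up to 0.103. Crk, at -0.23 ± 0.11, and the phosphatase Ptpn11, at -0.08 ± 0.13, did not pass, and Frs2, the docking protein of FGF receptors, was at 0.00 ± 0.14.

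Genes that respond to FGF signaling through ERK or feed back on it were mixed. Of 21 listed genes 12 were measured, of which 5 rose (41.7%, against 17.1% of all genes), 3 fell and 4 did not pass, with a median of 0.48. Egr1, Phlda1 and Etv5 were below 27.6 normalized counts in every control and were present only through the Ptf1a cKO libraries. The share that rose is therefore no result about this list. Dusp6, the ERK phosphatase that FGF receptors induce, measured 38.2, 36.1 and 35.1 normalized counts in control and 97.7, 72.0 and 117.7 in Ptf1a cKO libraries. All Ptf1a cKO libraries exceeded all controls, and Dusp6 rose by 1.29 ± 0.19 on the log2 scale (limma adjusted p = 0.00132). The immediate-early gene Egr1 rose by 2.25 ± 0.43 (limma adjusted p = 0.00439), Phlda1 by 1.14 ± 0.24 (0.00709), the ETS factor Etv5 by 0.95 ± 0.31 (0.0404) and the feedback inhibitor Spry1 by 0.53 ± 0.18 (0.0498). All 5 had positive signs with the same total. The calls for Etv5 and Spry1 each held in only 1 of 6 fits with a library left out, for Etv5 without Ptf1a cKO 2 and for Spry1 without control 3, and elsewhere reached limma adjusted p of up to 0.119 and 0.136. Myc fell by 1.67 ± 0.23 (limma adjusted p = 9.07e-04), Ccnd1, which encodes cyclin D1, by 1.17 ± 0.18 (0.00148) and Ier2 by 0.78 ± 0.11 (8.84e-04). Only Myc kept its negative sign with the same total. The Sprouty-related inhibitors Spred1 and Spred2 did not pass, at 0.57 ± 0.21 and 0.35 ± 0.23. These genes also respond to other growth factors.

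Markers of several non-acinar cell types were higher in the Ptf1a cKO libraries. Of 12 fibroblast and stellate markers 11 rose, with sums of 3751 to 4489 normalized counts in control and 7005 to 13051 in Ptf1a cKO libraries, and 7 did without control 1. Over all genes 17.1% were called higher. Of 10 measured leukocyte markers 8 rose, with sums of 487 to 838 and 1287 to 3160, and of 10 measured ductal markers 6 rose. The leukocyte count was 5 without control 1 or Ptf1a cKO 3 and 4 without control 2. The ductal count was 4 without control 2, control 3 or Ptf1a cKO 1, and the ductal marker Krt19 did not pass, at -0.01 ± 0.19. Among the markers called higher, leukocyte Cd52 and ductal Car2 were below 27.6 normalized counts in every control. Of the 10 endothelial and 12 endocrine markers 0 were called by limma, with 2 and 0 at an unadjusted p under 0.05. Without Ptf1a cKO 2, however, 1 endothelial and 5 endocrine markers were called higher, without control 1 or control 2 a single endothelial marker was called, and with the same total all 10 and all 12 were higher. Whether these cells contributed to the receptor and response transcripts was not tested.

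The genes next to Fgf21 on chromosome 7 were read last. Of the 5 protein-coding genes on either side, 6 of 10 were measured, and 3 of these fell, 2 rose and 1 did not pass, where 16.8% of all genes were called lower and 17.1% higher. Fut1, a fucosyltransferase gene directly beside Fgf21, measured 194.5, 202.4 and 165.9 normalized counts in control and 13.1, 48.6 and 17.1 in Ptf1a cKO libraries. It fell by 2.87 ± 0.36 on the log2 scale (limma adjusted p = 6.02e-04), and as in Fgf21 the highest Ptf1a cKO library was number 2. Bcat2, directly beside Fgf21 on the other side and encoding the mitochondrial branched-chain aminotransferase, measured 2024, 2100 and 1701 in control and 1081, 1167 and 834 in Ptf1a cKO libraries. It fell by 0.92 ± 0.16 (limma adjusted p = 0.00233). Farther out, Ppp1r15a, which encodes the eIF2α phosphatase subunit GADD34, fell by 0.70 ± 0.12 (limma adjusted p = 0.00262). Bcat2 and Ppp1r15a had positive log2 differences of 0.57 and 0.77 with the same total, whereas Fut1 remained at -1.50.

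Nucb1, encoding a Golgi calcium-binding protein, rose by 0.57 ± 0.14 (limma adjusted p = 0.0133), a call lost without control 1 or control 2, with limma adjusted p of up to 0.0631. Fut2, another fucosyltransferase gene, stood at 2.28, 1.21 and 0.52 normalized counts in control and at 58.2, 23.9 and 130.1 in Ptf1a cKO libraries and was called higher. With every control below 27.6 normalized counts, it too was present only through the Ptf1a cKO libraries. Rasip1, with a log2 difference of 0.22 ± 0.16, did not pass (limma adjusted p = 0.318). The annotation held no gene overlapping Fgf21 or Klb, whereas 1 antisense gene each overlaps Fgfr1 and Fgfr3. The long read-through model of Fgfr2 spans 69 other genes on both strands, among them the acinar genes Dmbt1 and Cuzd1. Whether reads were counted by strand was not given in the sources used here, so reads of overlapping genes cannot be told apart from the receptor reads.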

How the data were processed

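Per the labels, whole-pancreas RNA was sequenced from 3 control and 3 Ptf1a cKO mice. The authors aligned reads with TopHat2 and compared groups with edgeR after TMM normalization. The submitters' processing notes name TopHat2 2.0.4, Bowtie 0.12.7.0, SAMtools 0.1.18.0, HTSeq 0.6.0 and mm9. The authors deposited 1 signal value per gene and library, a normalized count that is not whole. The study's methods state the aligned reads of each library, but the deposited scaling removed them from the values and reads could not be recovered, so no counting interval is given, and limma was used.

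Here 3 entries naming no gene (75.7% to 82.6% of a library) were left out, and 17 genes named by dates were tested but not named. Values were divided by 13.6 (1 factor), 0.25 was added, log2 was taken, and limma 3.58.1 (R 4.3.3) was fitted with trend and no covariate, two-sided, with Benjamini-Hochberg adjustment over 10245 genes. A filter at a mean of 0.25 removed 0 genes. On simulated data with 10245 genes, 68 of 100 genes changed by 1 (log2) and 98 of 100 changed by 3 were recovered, with 8 false calls. Exon lengths (GENCODE, GRCm38) matched 10164 genes, 9680 of them directly and 484 by an older symbol. Promoters came from RefSeq. Python 3.11.15 and pandas 2.3.3 were used.

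The genes and lists were chosen with earlier results of these data known. Named were the receptor genes, other FGF ligands and receptors and the regulators, in other lists the 4 genes past the threshold with the largest difference in each direction and the 2 others with the highest mean, the 5 neighbors on either side and the 10 nearest patterns. Frs2, Spry1, Cfd, Alb, Ttr, Cela2a, Pla2g1b, Ear5 and the genes with motif windows were named after their values were seen. Some genes that the rule names are not reported here. Alternatives were other pseudocounts, a filter, other scalings, limma without trend or robust, a sex term, the replicate block, a threshold of 0.01 and leaving out each library.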

Additional observations from a re-analysis of the deposited data

How the results depend on the processing

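With each library scaled to the same total, limma called 9719 genes (9590 higher, 129 lower) in place of 3475, with 17 of the adaptors and 21 of the regulators among them (18 higher and 3 lower), and the log2 difference of Fgf21 was -2.48. That scaling moves the median gene to 1.49, so most genes count as higher. A total without the acinar list gave 3969 calls (2996 higher, 973 lower). An adjusted p under 0.01 left 1794 genes and 2 adaptors, and a filter at a mean of 100 left 3 of the response genes, with fewer genes tested in the latter. Leaving out a library gave 2363 to 3601 calls over all genes, 3 to 4 in the adaptors, 6 to 8 in the response genes, 12 to 14 in the regulators, 25 to 34 in the ATF4 targets and 11 to 15 in the PPARα targets. The log2 difference of Fgf21 then ranged from -4.67 to -3.42, and control over Ptf1a cKO for Fgf21 per 1000000 acinar counts from 2.52 to 5.51, the highest without Ptf1a cKO 2. The cause of that last difference was not tested.

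Whether replicate numbers paired the mice could not be settled with 3 mice per group, and the main fit left them unpaired. Deviations from the group means of same-numbered mice correlated at 0.0391, 0.134 and 0.144 across genes. The same-numbered control was the closest for Ptf1a cKO 2 and 3, whereas Ptf1a cKO 1 was closer to control 2 (0.0829). With the replicate number as a block, limma called 3525 genes (1814 higher, 1711 lower), 5 adaptors, 7 response genes, 13 regulators, 31 ATF4 targets and 15 PPARα targets. Of the results that answer a comparison, 123 recomputed values stayed near the reported one, 8 moved and 0 reversed. A reversal was looked for only in the log2 difference of Fgf21. Counts of calls were compared without regard to direction. The ATF4 targets counted as near with the same total, although they went from 30 lower and 1 higher to 6 lower and 17 higher. Count models were not run because reads could not be recovered, and an unfiltered fit was not run because the filter had removed 0 genes. The deposited values carry no depth, and precision rests on 3 mice per group.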
